A study of Oryza sativa with 10 samples.

Results

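The H3K36me3 profile of the rice hybrid GL×TQ was compared with the level midway between its inbred parents at 7463 regions, out of 12014 regions with an H3K36me3 peak in at least 1 of the 3 genotypes. The regions were made by joining the peaks of GL×TQ, GL and TQ that shared at least 1 bp and keeping those with a peak in all 3 lists, which makes up 62.1% of the joined regions. They hold 79.3% of the peak tags of GL×TQ, 83.9% of those of GL and 75.4% of those of TQ. The choice rested on called peaks alone. A call needs enough tags in a library, so regions where a genotype fell short of it are left out. These include 419 regions with a peak in GL and TQ but not in GL×TQ, and 365 with a peak in GL×TQ only. The shares below hold for regions called in all 3 lists.

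GL is the indica variety Guangluai-4, TQ is the indica variety Teqing, and GL×TQ is their F1 hybrid. The series also holds the indica variety Yangdao-6 (93-11) and the F1 hybrid GL×93-11, and all 5 genotypes were profiled for H3K36me3 and H3K27me3 by chromatin immunoprecipitation and sequencing (ChIP-seq) of second fully expanded leaves from field plants in Wuhan. Leaves of 3 plots were pooled into a single library per genotype and mark. There is therefore no replicate, no p-value is given, and every interval covers counting error only. The whole leaf was taken, so fewer modified cells and less modification per cell cannot be told apart. No annotation of the genome build behind the coordinates was used, so regions are given by their place on the Nipponbare chromosomes, without gene names.

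H3K36me3 is trimethylation of lysine 36 of histone H3. It is laid down by SET-domain methyltransferases along the bodies of genes that are being transcribed, and in plants it is regarded as a mark of active genes. H3K27me3, the Polycomb mark, is a hallmark of silenced developmental genes, and the marks are usually found on different genes. In a first-generation hybrid each locus carries an allele of either parent, so under purely additive behaviour the level of a mark would lie at the mean of the parents. The comparison below asks how often the level lay near that mean, which alone does not show additive behaviour where the parents are alike.

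The level of a region was the number of tags under its peaks per kb of the joined region, per 1000000 tags of that peak list. The lists were similar in size. GL×TQ had 9505 peaks with 6020750 tags, GL 9738 with 7096067, and TQ 9870 with 7065157, which is 13.4%, 14.9% and 14.2% of the unique mapped reads of each library. Median peak length was 2612 bp in GL×TQ, 2635 bp in GL and 2638.5 bp in TQ. A library median of 642 to 811 tags per region gave a median counting error of 0.07 on the log2 scale for the ratio of the F1 to its parents.

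Most regions of GL×TQ sat at the mid-parent level. The F1 was called near the mid-parent where it lay no more than 25% above or 20% below the mean of GL and TQ, which is the same fold in either direction and is called the limit here. In 6832 of 7463 regions, or 91.5% (95% Wilson interval 90.9 to 92.2), it lay within the limit. The median ratio of GL to TQ was 1.102. Between parents that close, a level within the limit cannot tell additive behaviour from the level of either parent. The share within the limit was 59.3% of 774 regions with GL at least 1.5-fold higher and 69.2% of 172 with TQ higher. At 2-fold or more it was 35.6% of 219 and 47.2% of 53. The ratio of F1 to mid-parent had a median of 0.999, quartiles of 0.939 and 1.05, and a range of 0.313 to 2.51. Its spread over regions was 0.19 on the log2 scale, wider than the median counting error.

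Past the limit were 631 regions, 8.46% of those compared. Of these, 140 (1.88%) lay above both parents, 273 (3.66%) below both parents and 218 (2.92%) between them. The counting interval of the ratio was wholly beyond the limit in 34 of the regions above, 116 of those below and 68 of those between. When order alone was asked for, at any fold, the F1 was above the higher parent in 1977 regions (26.5%), below the lower parent in 1281 (17.2%) and between them in 4205 (56.3%). The direction of these counts rests on the library totals: dividing by unique mapped reads moved the median ratio to 0.919 (-0.12 on the log2 scale), with 49 regions above and 626 below both parents past the limit.

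Regions with few tags supplied most of the departures. Regions were sorted by the tags of the 3 libraries together into 4 bins of nearly equal size. The lowest bin, at 270 to 1214 tags, had 420 of 1867 regions past the limit (22.5%). The next bin had 186 of 1865 (9.97%), followed by 18 (0.965%) and 7 (0.375%) in the upper bins. Departures from the mid-parent level were thus concentrated in weakly covered regions, where counting error was larger too: its median went from 0.11 to 0.05 on the log2 scale between the lowest and the highest bin.

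Median levels of the classes show the size of these departures. Above both parents they were 27.02 in GL×TQ, 19.7 in GL and 20.4 in TQ. Below both parents they were 16.7, 28.1 and 20.5, and between the parents 16.9, 31.1 and 15.1, beside 37.8, 40.2 and 36.03 in the regions near the mid-parent. All 3 departing classes were thus lower in H3K36me3 than the rest in every library.

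The departures went with the length of the called peak more than with the density of tags under it. This is partly built into the level, because tags outside a library's called peaks are not in its list and count as absent. Among the 140 regions above both parents the median peak length was 2074.5 bp in GL×TQ, 1553 bp in GL and 1569.5 bp in TQ. Among the 273 below both parents it was 1334 bp in GL×TQ, 2161 bp in GL and 1678 bp in TQ. The 218 regions between the parents had 1364 bp in GL×TQ, 2258.5 bp in GL and 1334 bp in TQ, so the F1 peak was of TQ length there. This class holds the F1 off the mean but inside the parental range. GL was the higher parent in 202 of the 218 and the median ratio to the mid-parent was 0.743. The class rule thus places most of these F1 levels toward TQ, and the length is a description. In the regions near the mid-parent level, lengths were 2704, 2869 and 2699.5 bp.

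A second measure gave less weight to length. Tags of each peak were spread evenly over it and counted only on the base pairs under peaks of all 3 lists, which 7460 regions have. The even spread gives each peak its own mean density, so any weaker flanks of a longer peak still lower its value. Part of a fall in departures can therefore be built into this measure. Dividing by the length of each library's own peaks gave nearly the same counts, with 7409 within the limit, 43 above and 9 below. Over these shared base pairs 7406 regions (99.3%, interval 99.1 to 99.4) lay within the limit, and 54 (0.724%) lay past it, 43 above both parents, 9 below both and 2 between. The ratio ran from 0.750 to 1.51 with a median of 1.03, and its spread of 0.10 on the log2 scale came closer to the counting error of 0.07. Of the 628 regions past the limit on the whole-region measure that have shared base pairs, 599 (95.4%) were within it on this one: 126 of 140 above, 259 of 271 below and 214 of 217 between.

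**Figure D1:**
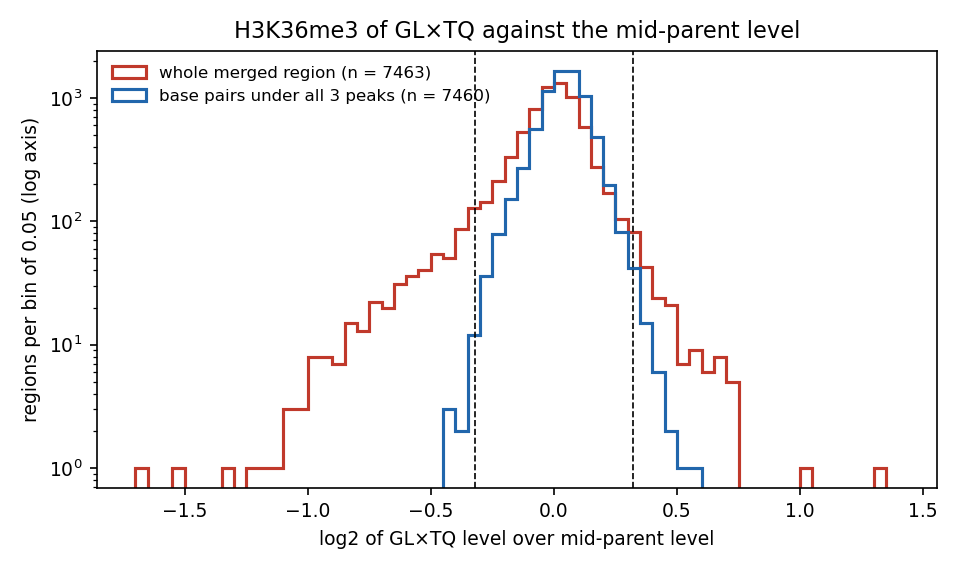
Number of regions (log axis) by the log2 ratio of the GL×TQ level to the mid-parent level, over whole joined regions (red, 7463 regions) and over base pairs under the peaks of all 3 lists (blue, 7460 regions), with dashed lines at the limits. The red distribution has long tails on both sides, and the blue one has 54 regions past the limits.

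The named regions below were taken among 5240 regions with at least 100 tags and a score of at least 100 in each list. The score column has no readable heading and was taken as the peak caller's 10 × −log10 of the p-value. The named regions were ranked by the ratio to the mid-parent, so their place on it is a description. Levels are given in tags per kb per 1000000 list tags over the whole region, and the density on shared base pairs is given in the same unit.

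The farthest region above both parents was on chromosome 12 from 27209779 to 27211628, with a level of 25.2 in GL×TQ, 15.5 in GL and 16.1 in TQ from 281, 203 and 210 tags. Its ratio was 1.60 (95% counting interval 1.38 to 1.86). The F1 peak covered the whole 1850 bp, while the GL peak covered 1279 bp and the TQ peak 1181 bp. On the shared base pairs the densities were 25.2, 22.4 and 25.2 for F1, GL and TQ, so the F1 equalled TQ there and the ratio was 1.06. The called peak of the hybrid was thus wider here than that of either parent, at the density of TQ and above that of GL. Signal outside the parental peaks cannot be seen from the lists.

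The second, on chromosome 6 from 29340834 to 29343160, had levels of 28.1 in GL×TQ, 20.2 in GL and 15.9 in TQ, with a ratio of 1.56 over the region and 1.16 on shared base pairs. GL alone had an H3K27me3 peak over it. On chromosome 7 from 17267417 to 17273409 the levels were 34.9 in GL×TQ, 15.3 in GL and 31.98 in TQ, a ratio of 1.48. That interval of 5993 bp held 2 peaks in the F1 and in TQ but only 1 in GL, so the F1 resembled TQ in layout. On chromosome 5 from 24978077 to 24981160 the F1 likewise stood next to TQ, at 31.7 against 30.0, with GL at 14.3.

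The region on chromosome 3 from 13269931 to 13271166 was the only 1 of these 10 past the limit on both measures, at 1.42 and 1.252. Its levels were 28.5 in GL×TQ, 19.7 in GL and 20.3 in TQ, with 212, 173 and 177 tags, and its densities on shared base pairs were 28.5, 23.2 and 22.3. The parents were close to each other there and the F1 stood above both. The counting interval of the ratio over the region, 1.20 to 1.69, includes the limit. The other 5, on chromosomes 4 (3 regions), 12 and 1, had ratios of 1.38 to 1.402 over the region and 1.01 to 1.0997 on shared base pairs. The lower ends of their counting intervals over the region ran from 1.17 to 1.254. In all 10 the F1 peak was the longest of the 3, and in all 10 a peak was also called in 93-11 and in GL×93-11.

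Below both parents, the farthest region was on chromosome 6 from 862999 to 869232, with a level of 18.0 in GL×TQ, 43.4 in GL and 37.5 in TQ, from 676, 1918 and 1650 tags. The ratio was 0.446 (0.411 to 0.484). GL and TQ each had 2 peaks that together covered 6193 and 5968 bp, and GL×TQ had 1 peak of 2984 bp. Under that peak the F1 density was 37.6, against 37.1 in GL and 32.3 in TQ, a ratio of 1.08. The hybrid therefore lacked a called peak that both parents had, and no lower density where it had one. In this interval 93-11 had 1 peak with 749 tags and GL×93-11 had none.

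A region on chromosome 8 from 19544166 to 19547142 also had a shorter stretch under peaks in the F1, with levels of 18.3 in GL×TQ, 33.7 in GL and 34.2 in TQ, peaks of 1387 bp (1 peak), 2860 bp (1 peak) and 2774 bp (2 peaks), and ratios of 0.539 over the region and 1.03 on shared base pairs. On chromosome 10 from 13811252 to 13814364 the levels were 20.0 in GL×TQ, 34.5 in GL and 35.5 in TQ, and on chromosome 3 from 20871092 to 20874425 they were 18.0, 32.4 and 30.0. The parents nearly matched at these 3 places, and the F1 had about the parental density (ratios of 1.02 and 1.12 at the last 2) over a shorter peak. At these 3 places GL×93-11, which shares GL as a parent, had peaks of 3021, 3406 and 1667 bp, so its peak was short at the third only.

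The region on chromosome 5 from 22537143 to 22540388 differed. Its levels were 15.9 in GL×TQ, 45.7 in GL and 17.4 in TQ, and on shared base pairs the densities were 31.2, 45.7 and 30.9. Here the F1 was close to TQ in both measures, at ratios of 0.505 and 0.814. Of the 5 remaining regions of this set, on chromosomes 4, 2, 3, 10 and 8, the ratios ran from 0.578 to 0.602 over the region. Over shared base pairs 4 of them ran from 0.876 to 0.975, and the region on chromosome 3 from 34771145 to 34773758 turned to the other side, at 1.253, with a peak of 976 bp in the F1 against 2614 and 1579 bp in GL and TQ. The F1 peak was the shortest in 9 of the 10 regions below both parents.

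**Figure D2:**
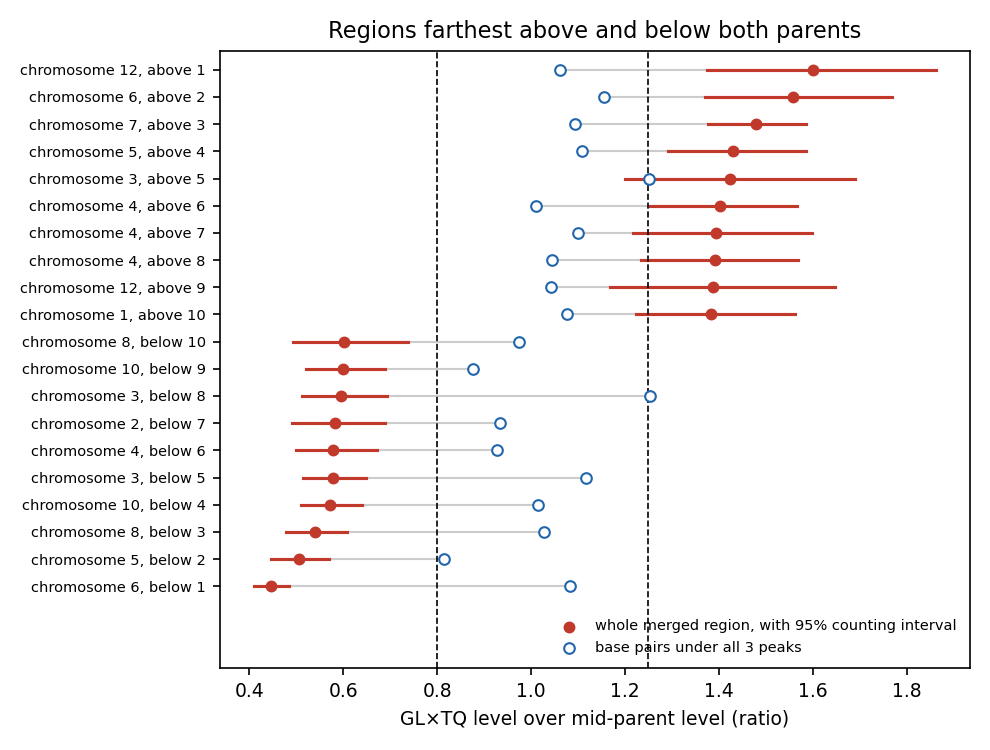
Ratio of the GL×TQ level to the mid-parent level in the 10 regions farthest above and the 10 farthest below both parents, each row labelled by chromosome and rank, over the whole region (red, with 95% counting interval) and on base pairs under all 3 peaks (blue circles); dashed lines mark the limits. In all, 18 of the 20 regions lie within the limits on shared base pairs, and the 2 outside are both on chromosome 3.

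The limit itself cuts through a continuous range. The regions nearest to it had ratios of 1.24986 (chromosome 5 from 4308606 to 4310833) and 1.25004 (chromosome 5 from 17187129 to 17188395) on the upper side, and of 0.800083 (chromosome 1 from 38561773 to 38562971) and 0.799941 (chromosome 10 from 22694519 to 22696706) on the lower. Their counting intervals, such as 1.101 to 1.419 for the first, reached far into the neighbouring class.

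The 5 regions richest in H3K36me3 were all near the mid-parent, as were 4970 of the 5240 regions from which they were taken. The highest level was on chromosome 6 from 18952487 to 18953813, at 77.9 in GL×TQ, 77.2 in GL and 80.7 in TQ, a ratio of 0.986. On chromosome 1 from 40125942 to 40128923 the levels were 68.5, 66.5 and 67.3, and on chromosome 9 from 13179922 to 13183704 they were 67.5, 69.1 and 64.8. Both regions of chromosome 7 in this set, from 26617728 to 26621326 and from 20731374 to 20734763, had ratios of 1.05 and 1.099. The 5 ratios on shared base pairs were 1.05 to 1.06, a little above the median of all regions.

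The parental levels were not equal. Levels are scaled to whole lists, and these regions hold 83.9% of the peak tags of GL and 75.4% of those of TQ. The excess of GL below therefore depends on this scaling. GL was above TQ in 5708 regions (76.5%), with a median GL to TQ ratio of 1.102, quartiles of 1.01 and 1.2501, and a range of 0.187 to 6.85. Taken over shared base pairs, GL was above in 4874 regions (65.3%) at a median of 1.04. Of the 3 libraries GL had the highest level in 4585 regions (61.4%) and TQ the lowest in 4715 (63.2%).

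The classes differed in this ratio of GL to TQ. GL was higher than TQ in 236 of the 273 regions below both parents (86.4%; median ratio 1.3998) and in 202 of the 218 regions between them (92.7%; median 2.07). In the regions above both parents the parents were nearly even, with a median of 0.978, and near the mid-parent level the median was 1.09. The mid-parent is an average that a high parent pulls up, and these counts share the GL and TQ values with the classes, so they are a description.

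**Figure D3:**
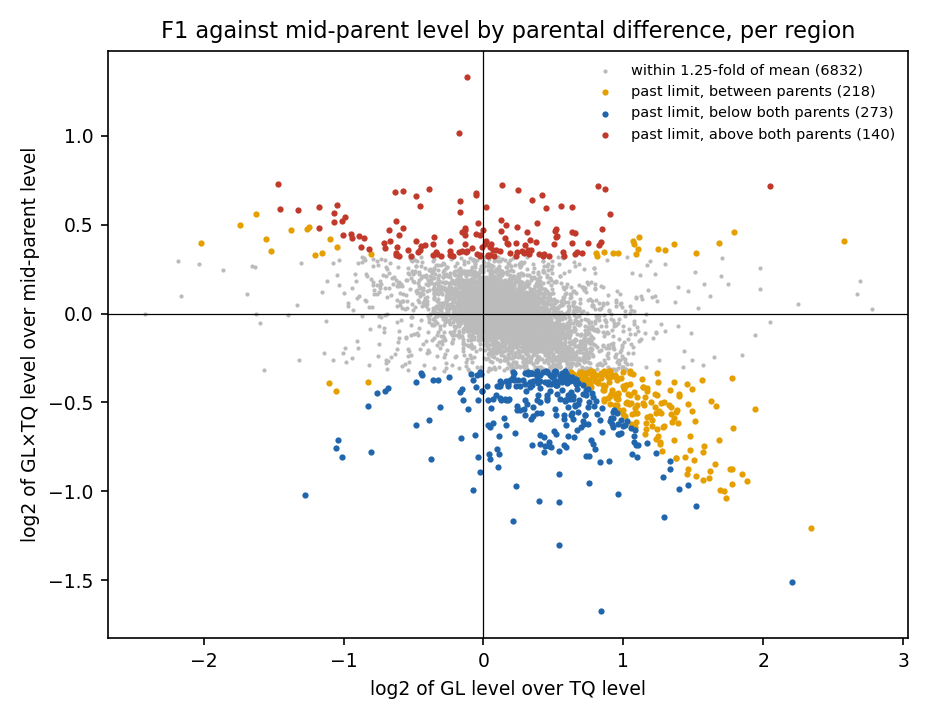
Each point is a region, placed by the log2 ratio of GL to TQ level (x axis) and by the log2 ratio of GL×TQ to mid-parent level (y axis), coloured by class with the number of regions in brackets. Points between the parents past the limit (orange) lie mostly at the lower right, where GL is the higher parent and the F1 is below the mean: 202 of 218 have GL above TQ.

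Where the parents differed, GL×TQ lay nearer to TQ. GL was at least 1.5-fold higher than TQ in 774 regions (10.4%), and TQ at least 1.5-fold higher than GL in 172 (2.3%). With each library centred at its median level these counts were 476 and 272, so the imbalance was smaller. With unique mapped reads as the total they were 970 and 141, so it was larger. On a scale with TQ at 0 and GL at 1, the median position of the F1 was 0.23 (quartiles 0.08 and 0.44) where GL was higher and 0.28 (0.08 and 0.53) where TQ was higher. The F1 was thus low where TQ was low and high where TQ was high. The GL and TQ levels that picked these regions also set the scale. The F1 level had no part in the fold between the parents, but a called F1 peak was required. Regions where the F1 fell short of a call are thus left out, and the effect of this on the position was not tested. The F1 was nearer to TQ than to GL in 615 of 774 regions (79.5%, interval 76.5 to 82.2) and in 121 of 172 (70.3%, 63.1 to 76.7).

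Median levels give the same picture. In the 774 regions with GL higher they were 32.2 in GL, 17.4 in TQ and 22.04 in GL×TQ, with peak lengths of 2205.5, 1416.5 and 1543.5 bp. In the 172 regions with TQ higher the medians for GL, TQ and GL×TQ were 15.4, 28.7 and 25.4, with peak lengths of 1507.5, 2486.5 and 2177 bp. The F1 passed beyond the TQ level in 98 and 29 of these regions and beyond the GL level in 16 and 9. Despite the lean to TQ, 459 of the 774 and 119 of the 172 were within the limit.

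On shared base pairs far fewer regions had parents 1.5-fold apart. GL was higher in 118, with a median F1 position of 0.37 and 79 of them (66.9%) nearer to TQ, and TQ was higher in 22, with a position of 0.31 and 19 (86.4%) nearer to TQ. Over the alternative scalings, filters and folds, and the regions with a peak in all 5 genotypes, the share nearer to TQ was 63.4% to 90.5% where GL was higher and 60.3% to 89.5% where TQ was higher. In the exception, only 4 regions had GL 2-fold higher on shared base pairs, and 1 of them was nearer to TQ.

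The strongest parental contrasts show how the F1 varied among such regions. The largest GL excess was on chromosome 11 from 23195062 to 23198493, with 962 tags in GL, 189 in TQ and 212 in GL×TQ, or levels of 39.5, 7.8 and 10.3. The F1 was at the TQ level, at position 0.08, and the 3 peaks had no base pair in common. On chromosome 4 from 1106496 to 1109096 the F1 was at TQ as well, with levels of 40.8 in GL, 12.03 in TQ and 14.4 in GL×TQ. Neither place had a peak in 93-11.

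Other regions were midway or nearer to GL. On chromosome 7 from 13511845 to 13515086 the levels were 47.0 in GL, 9.9 in TQ and 29.6 in GL×TQ, a ratio to the mid-parent of 1.04 and a position of 0.53. On chromosome 5 from 19628987 to 19632054 they were 41.1, 10.4 and 28.3 for GL, TQ and GL×TQ, at position 0.58. On chromosome 12 from 3668169 to 3670604 they were 34.8, 10.1 and 30.8, at position 0.84, and all 3 genotypes had an H3K27me3 peak there. The sixth region of this set, on chromosome 4 from 31462939 to 31464835, was at position 0.37. So 3 of the 6 were nearer to TQ.

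Where TQ was the higher parent, the largest excess was on chromosome 5 from 4311353 to 4314619, with 470 tags in GL×TQ, 189 in GL and 842 in TQ, or levels of 23.9, 8.2 and 36.5. The F1 was close to the mid-parent, with a ratio of 1.07. The region on chromosome 2 from 10509484 to 10512360 was at the mid-parent as well, with levels of 23.7 in GL×TQ, 11.6 in GL and 35.8 in TQ, a ratio of 0.999. By contrast, on chromosome 2 from 19384863 to 19387286 the F1 reached 26.5 beside 27.6 in TQ and 10.6 in GL, and on chromosome 6 from 23006411 to 23009230 it reached 31.3 beside 36.4 and 12.7. The remaining regions on chromosomes 10 and 4 were at positions 0.46 and 0.38.

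The shape of the F1 peaks leaned the same way. The summed peak length of GL×TQ was nearer to that of TQ in 4752 of 7463 regions (63.7%) and nearer to that of GL in 2676 (35.9%). Its median over these regions was 2612 bp in GL×TQ, 2613 bp in TQ and 2802 bp in GL. The count thus includes a length difference of the libraries as a whole, for which it was not adjusted. Length also enters the level, so it is not separate from the lean in level. In the 7399 regions with a single peak in each list, the F1 summit was nearer to the TQ summit in 4450 (60.1%) and nearer to the GL summit in 2829 (38.2%). The median distance between summits was 61 bp for GL×TQ and TQ, 93 bp for GL×TQ and GL, and 110 bp for GL and TQ. Presence of peaks in regions outside the 7463 showed it too: 1052 regions (8.76% of the 12014) had a peak in the F1 and TQ only, and 582 (4.84%) in the F1 and GL only. With 1 library of each genotype, the genotype and its library cannot be told apart in any of this.

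The libraries of 93-11 and GL×93-11 gave a yardstick at 6650 of the regions, those with a peak in all 5 genotypes. Read against the same GL and TQ mean, GL×TQ was within the limit in 93.3% of them, GL×93-11 in 88.3% and 93-11 in 74.4%. The spread of the log2 ratio was 0.17, 0.22 and 0.30. The median ratios were 1.00, 0.940 and 0.905, so the libraries were also shifted as a whole. With each library centred at its median level, GL×93-11 was within the limit in 89.0% and 93-11 in 81.8%. The hybrid of these parents was thus the closest to their mean, the hybrid with 1 of them next, and the variety outside the cross the farthest. The 3 shares on shared base pairs were 99.3%, 98.1% and 94.1%, in the same order.

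In the regions where the parents differed by 1.5-fold, the 3 libraries took different positions on the scale from TQ to GL. Where GL was higher (568 regions), the median was 0.25 for GL×TQ, 0.50 for GL×93-11 and -0.03 for 93-11, so 93-11 was at the TQ level and its hybrid with GL midway. Over the base pairs shared by all 5 lists (82 regions) GL×93-11 was nearer to GL, at 0.63, and GL×TQ was at 0.41. Where TQ was higher (137 regions), the medians were 0.29, 0.50 and 0.41. GL×TQ was nearer to TQ in 76.8% and 71.5% of these regions, and GL×93-11 in 49.8% and 51.1%. The variety 93-11, which has no TQ parent, was nearer to TQ in 87.5% and 56.2%. GL×93-11 was thus split evenly over whole regions while GL×TQ was not, but all of these positions share the GL and TQ libraries and the difference was not tested.

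**Figure D4:**
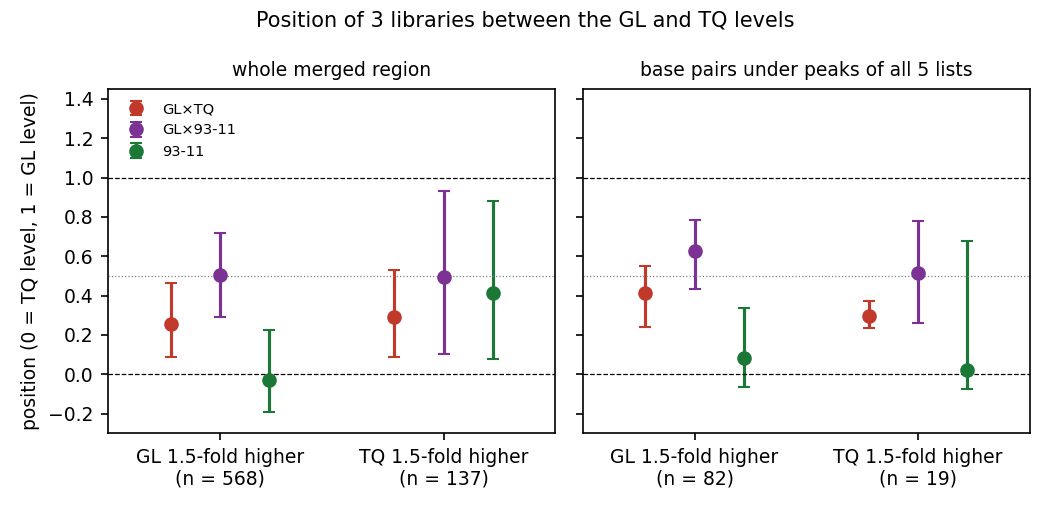
Median (point) and quartiles (bars) of the position of GL×TQ, GL×93-11 and 93-11 on a scale with TQ at 0 and GL at 1, over regions where GL or TQ is at least 1.5-fold higher, on whole regions (left) and on base pairs under peaks of all 5 lists (right). GL×TQ lies below the midpoint in all 4 groups, at 0.25 and 0.29 on whole regions, whereas GL×93-11 lies at 0.50 in both groups on whole regions.

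GL×TQ and the nearest comparisons within the series stood side by side as follows, each against its own parents. For H3K36me3 of GL×93-11, 7194 regions were shared with its parents, 91.9% were within the limit, 247 (3.43%) were above and 208 (2.89%) below both parents, and the median ratio was 0.965. For H3K27me3 of GL×TQ, 5999 regions were shared, 75.5% were within the limit, 756 (12.6%) were above and 524 (8.73%) below, at a median of 1.06. The H3K27me3 regions carried fewer tags, with a median of 368 in the F1 against 642 for H3K36me3, and on shared base pairs 93.9% of them were within the limit. The direction turned with unique mapped reads as the total, to 153 above and 1551 below for H3K27me3 of GL×TQ and to 215 above and 238 below for H3K36me3 of GL×93-11. H3K36me3 thus departed from the mid-parent at a similar rate in both hybrids, and H3K27me3 departed more often in the same plants at lower depth.

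H3K27me3 was found more often at the regions above both parents. A peak of H3K27me3 in GL×TQ overlapped 25 of the 140 (17.9%, interval 12.4 to 25.03), against 5.68% of the regions near the mid-parent, 5.13% of those below both parents (14 of 273) and 11.0% of those between them. The same held for the H3K27me3 peaks of GL, at 19.3%, 7.10%, 10.6% and 15.6% for above, near, below and between, and for those of TQ, at 18.6%, 5.77%, 6.23% and 11.9%, so the parents had the higher share too. These regions were also weakly covered, and within the lowest bin by tags the overlap was 17 of 100 regions above (interval 10.9 to 25.5) and 165 of 1447 near the mid-parent (11.4%), so that the latter share lies inside the interval of the former. Within the lower 2 bins it was 24 of 133 (18.0%) and 8.73%.

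H3K27me3 regions with a peak in all 3 genotypes were also compared with their own mid-parent where they overlap a class, which leaves few regions outside the class near the mid-parent. Over the base pairs shared by its own 3 lists, the median ratio of H3K27me3 in GL×TQ to its mid-parent was 1.06 in the 21 such regions that overlap the class above both parents for H3K36me3, 0.968 in the 13 below, 0.994 in the 20 between and 1.02 in the 324 near the mid-parent, beside 1.05 over all 5994 H3K27me3 regions.

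The classes were spread over all 12 chromosomes. The share near the mid-parent ran from 89.9% on chromosome 12 to 93.0% on chromosome 2. Regions above both parents made up from 1.26% on chromosome 1 to 3.39% on chromosome 11, followed by 3.06% on chromosome 12. Regions below both parents made up from 2.08% on chromosome 11 to 5.29% on chromosome 10. Chromosome 11 thus had the largest share above and the smallest share below.

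In windows of 1 Mb with at least 10 regions, the median ratio on shared base pairs ran from 0.989 to 1.14 over 318 windows and was over 1 in 309 of them. The highest was on chromosome 12 from 13000001 to 14000000, where 23 regions had a median of 1.14 and 21 were over 1, beside 69.7% of all regions at a median of 1.03. This median of all regions, and with it the count of 309 windows, depends on the library totals. With each library centred it was 1.01, and regions above the higher parent on shared base pairs fell from 3424 to 2384. The next windows were at 1.09 on chromosome 12 and 1.08 on chromosome 11. Inside the highest window, 17 regions stood in a run of 75.3 kb from 13341498 to 13416751, chosen after the values were seen, with a median ratio of 1.18 and a range of 0.971 to 1.28. GL×TQ was above both parents on shared base pairs in 13 of the 17, beside 45.9% of all regions, and the window had been picked as the highest on this same ratio. The 6 other regions of the window had a median of 1.06.

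This run was unusual in carrying both marks. GL×TQ had an H3K27me3 peak at 15 of its 17 regions, against 5.86% of all regions outside it, and the regions were short, with a median of 1159 bp. Over the run as a whole the H3K36me3 level per kb of peak per 1000000 list tags was 33.9 in GL×TQ, 30.2 in GL, 29.9 in TQ, 37.1 in 93-11 and 36.3 in GL×93-11. The F1 was above its parents, and both libraries with 93-11 were higher still. Per 1000000 unique mapped reads the levels were 4.54, 4.49, 4.23, 5.34 and 5.23, so with that total the F1 stood only just above GL. Without the run, H3K27me3 in GL×TQ overlapped 21 of 136 regions above both parents (15.4%, interval 10.3 to 22.5), beside 5.53% near the mid-parent. The higher share thus remained, without matching for depth. With the run included, the share near the mid-parent was 11.4% in the lowest bin by tags, inside that interval. In the lower 2 bins it was 8.73%, outside it.

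**Figure D5:**
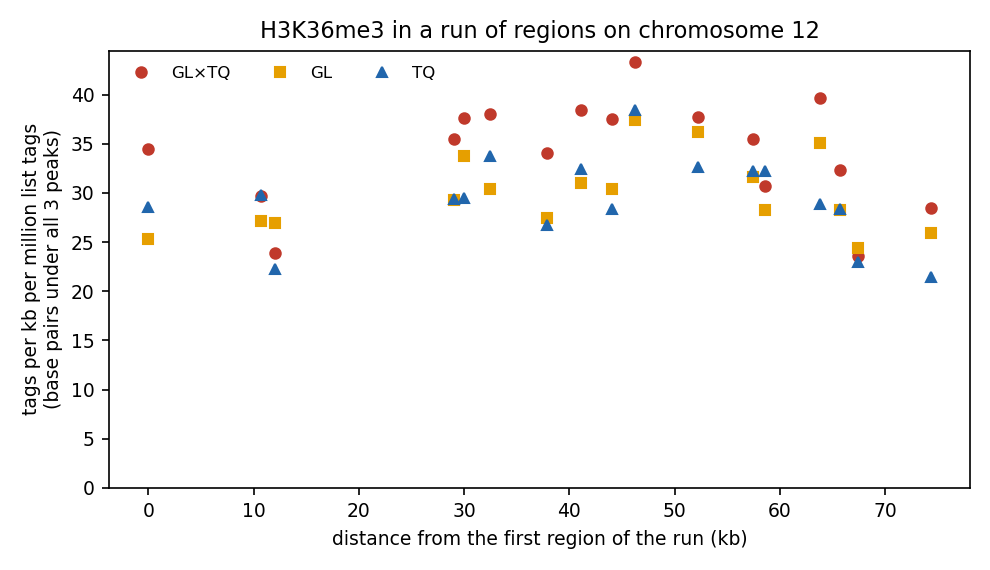
Tags per kb per 1000000 list tags on base pairs under all 3 peaks for each of the 17 regions of the run on chromosome 12, by distance in kb from the first region, in GL×TQ (circles), GL (squares) and TQ (triangles). GL×TQ is above both parents in 13 of the 17 regions, beside 45.9% of all regions.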

How the data were processed

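The members, lists and comparisons were chosen with earlier results of these data known. Quality-filtered reads were aligned by the authors to the Nipponbare reference of Gramene (SOAP2) and peaks were called per library (MACS). The reference's version was not given in the sources used. Per the file headers, the deposited lists hold a tag count per peak, a score (10 × −log10 of the MACS p-value, in a column whose heading is lost) and a fold enrichment ratio. Fold values were only tabulated. Levels divide tags by region length and by the sum of tags of the list. Positions are 1-based.

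Shares carry 95% Wilson intervals, and ratios carry 95% intervals from Poisson counting error. With 1 library per genotype and mark no test was possible.

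Regions were named by rule: with at least 100 tags and a score of at least 100 in each list, the 10 highest and 10 lowest ratios past the limit and beyond both parents, the 6 highest and 6 lowest GL to TQ ratios, the 5 highest mean levels, and the regions next to the limit.

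Alternatives were other library totals (unique mapped reads of the study's read statistics), lengths, fold limits, score, tag, coverage and peak-number filters, and the geometric mean. Centring each library at its median, the split by depth and the omission of the run on chromosome 12 were added after the data were seen. Python 3.11.15, numpy 2.4.6, pandas 2.3.3 and scipy 1.17.1 were used, and the computation was tested on simulated data. No annotation or sequence of the build was used here.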

Additional observations from a re-analysis of the deposited data

Results flagged for a closer look

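The hybrids lay on different sides of their mid-parent level on shared base pairs. The median ratio for H3K36me3 was 1.03 in GL×TQ and 0.977 in GL×93-11. The difference was not tested, both medians move with the library totals, and GL is a parent of both hybrids.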

How the results depend on the processing

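Each genotype has 1 library, so no replicate was left out. No paired analysis was possible because no genotype has 2 libraries of the same mark. Of 148 recomputed values, 96 stayed within 1.5 times of the count or within the counting interval and 52 did not. The 6832 regions within the limit stayed within 1.5 times under every alternative, but which of above and below was the larger count turned over with the scaling, as the values here show. The cause of the other shifts was not tested.

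With unique mapped reads as the total, the F1 was above the higher parent in 405 regions (1977 before) and below the lower in 3557 (1281), and past the limit in 49 above (140) and 626 below (273). H3K27me3 of GL×TQ then had 153 regions above (756) and 1551 below (524). The share nearer to TQ was 90.5% where GL was higher (79.5%) and 60.3% where TQ was higher (70.3%), and 73.0% of 93-11 regions were within the limit (74.4%).

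On shared base pairs these values were 3424, 651, 43 and 9 for the order and limit counts, 66.9% and 86.4% nearer to TQ, 94.1% for 93-11 and 98.1% for GL×93-11 (88.3%), and H3K27me3 overlapped 34.9% of regions above (17.9%) and 11.1% below (5.13%). With the length of each library's own peaks they were 3423, 655, 43, 9, 67.2%, 86.4%, 94.2%, 98.1%, 34.9% and 11.1%.

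With scores of 100 or more, 442 regions were below the lower parent and 72 below past the limit, 2.78% of these had H3K27me3, 72.0% and 78.7% were nearer to TQ, and 83.9% of 93-11 and 92.8% of GL×93-11 regions were within the limit. Limits of 1.1 and 1.5 gave 687 and 25 regions above and 663 and 99 below. Centred libraries gave 76.3% nearer to TQ where GL was higher and 81.8% for 93-11. Centring on shared base pairs gave 24 above and 13 below, 33.3% of those above with H3K27me3, 68% and 83.7% nearer to TQ, 94.5% for 93-11 and 97.7% for GL×93-11. With peaks over 50% of the region these last were 75.5% and 89.5%, and the geometric mean gave 75.5% for 93-11.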

Other observations

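Peak presence outside the shared regions differed in strength between patterns. Peaks of GL and TQ with none in GL×TQ were found in 419 regions (3.49% of 12014), with a median of 560 tags in GL and 428 in TQ. Peaks of GL×TQ alone were found in 365 regions (3.04%), with a median of 724 tags, and 24.9% of these had a score of at least 100. Regions of the F1 and TQ had medians of 719 tags in the F1 and 824.5 in TQ, and those of the F1 and GL had 305 in the F1 and 495 in GL. The regions of the F1 and GL had fewer tags over a shorter median length (2321.5 against 3148 bp), and more of them had a score of at least 100 (69.8% against 64.4%).

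At the 107 regions above both parents that have a peak in all 5 genotypes, the 93-11 library was over the GL and TQ mean in 79, with a median ratio of 1.14, and GL×93-11 in 84, with a median of 1.24. On shared base pairs, which 105 of them have, the medians were 1.11 for GL×TQ, 1.11 for 93-11 and 1.08 for GL×93-11. At the 193 regions below both parents the medians were 0.679 for 93-11 and 0.915 for GL×93-11, and on shared base pairs (191 regions) 0.969 and 0.997. These ratios use the same GL and TQ values that define the classes and are not independent of them.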
